A study of Mus musculus with 4 samples.

Results

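Fc receptors bind the constant part of antibodies, and 8 mouse genes of this family were followed in CD11b+ spleen cells: Fcgr1, Fcgr2b, Fcgr3, Fcgr4, Fcer1g, Fcer1a, Fcer2a and Fcmr. They were chosen by gene symbol, and all 8 genes were measured, by 14 of the 45037 probe sets on the array. Of the 4 arrays, 2 held RNA from control mice (environment LowThreat) and 2 held RNA from mice exposed to repeated social threat (HighThreat). Each array was hybridised with total RNA pooled from 5 mice, so the spread between arrays is a spread between pools and not between mice. Strain, sex and age of the mice are not given in the sources used here, and no label names a transgene, an injected agent or a batch. Affymetrix MOE430 2.0 arrays read a gene with 1 or more probe sets, and the deposited values are log2 expression, so that 1 unit is a doubling.

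Receptors for IgG, the Fc gamma receptors, divide into activating and inhibitory members. The activating receptors encoded by Fcgr1 (CD64), Fcgr3 (CD16) and Fcgr4 need the common gamma chain, encoded by Fcer1g, whose ITAM motif is phosphorylated by Src family kinases and then recruits the kinase Syk. Fcgr2b (CD32) is the inhibitory receptor, which carries an ITIM motif and recruits the lipid phosphatase SHIP-1, and it is found on B cells and on myeloid cells. In the spleen, macrophages, monocytes and neutrophils use activating receptors to take up antibody-coated particles. Fcer1a encodes the IgE-binding chain of the high-affinity IgE receptor of basophils and mast cells. Fcer2a (CD23), the low-affinity IgE receptor, and Fcmr, the IgM receptor, are known mainly from B cells.

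Over all probe sets, Pearson's r was 0.997 for the pair of control pools, 0.998 for the pair of social threat pools and 0.989 to 0.990 for pools of unlike groups. Itgam, the gene of the CD11b antigen used for isolation, stood at 10.47 and 11.01 in the control pools and at 11.64 and 11.59 in the social threat pools, so it was present in all pools and rose by 0.88 (SE 0.13, limma adjusted p = 0.0015). A control pool thus stood apart from its partner in Itgam. Lymphocyte markers were present too: the list medians for B, T and NK cells lay above the array median in all pools, and their levels are given with the marker lists below. Since RNA was taken from mixed cells, fewer cells of a type and less RNA per cell cannot be told apart.

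The comparison asked how expression in these cells differed after repeated social threat. The IgG receptor genes Fcgr3 and Fcgr4 rose, the antibody receptor genes of B cells, Fcer2a and Fcmr, fell, and the other 4 genes did not pass the test. The falls were the larger changes, at 2.76-fold lower for Fcer2a and 2.55-fold lower for Fcmr, against 1.42-fold higher for Fcgr4 and 1.16-fold higher for Fcgr3. In limma, at a Benjamini-Hochberg adjusted p under 0.05, 5 of the 14 probe sets were called, where 15.8% of all probe sets were called. Of these, 2 were higher, against 7.09% of all probe sets, and 3 were lower, against 8.67%. Only 2 of the 14 lay below the median level of all probe sets, so these shares hold a larger part of dim ones. With only probe sets above that median fitted, 7452 in all were called, more than the 7099 of the full table, and 6 of them were Fc receptor probe sets. More calls among fewer probe sets mean a share above 15.8%. The 15.8% therefore overstates how far the Fc receptor probe sets stand out from others of like level. The pools of the groups did not overlap for 11 of the 14 probe sets, a separation seen for 52.7% of all probe sets (24.1% with the social threat pools higher and 28.6% with them lower). Taking the brightest probe set of each gene, 4 of 8 genes were called, against 21.1% of 18193 genes. The median log2 difference, social threat minus control, was -0.06 over the 8 genes and -0.02 over all genes. Without social threat pool 1, and likewise without social threat pool 2, only 1 of the higher calls was made, that of Fcgr4.

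**Figure D1:**
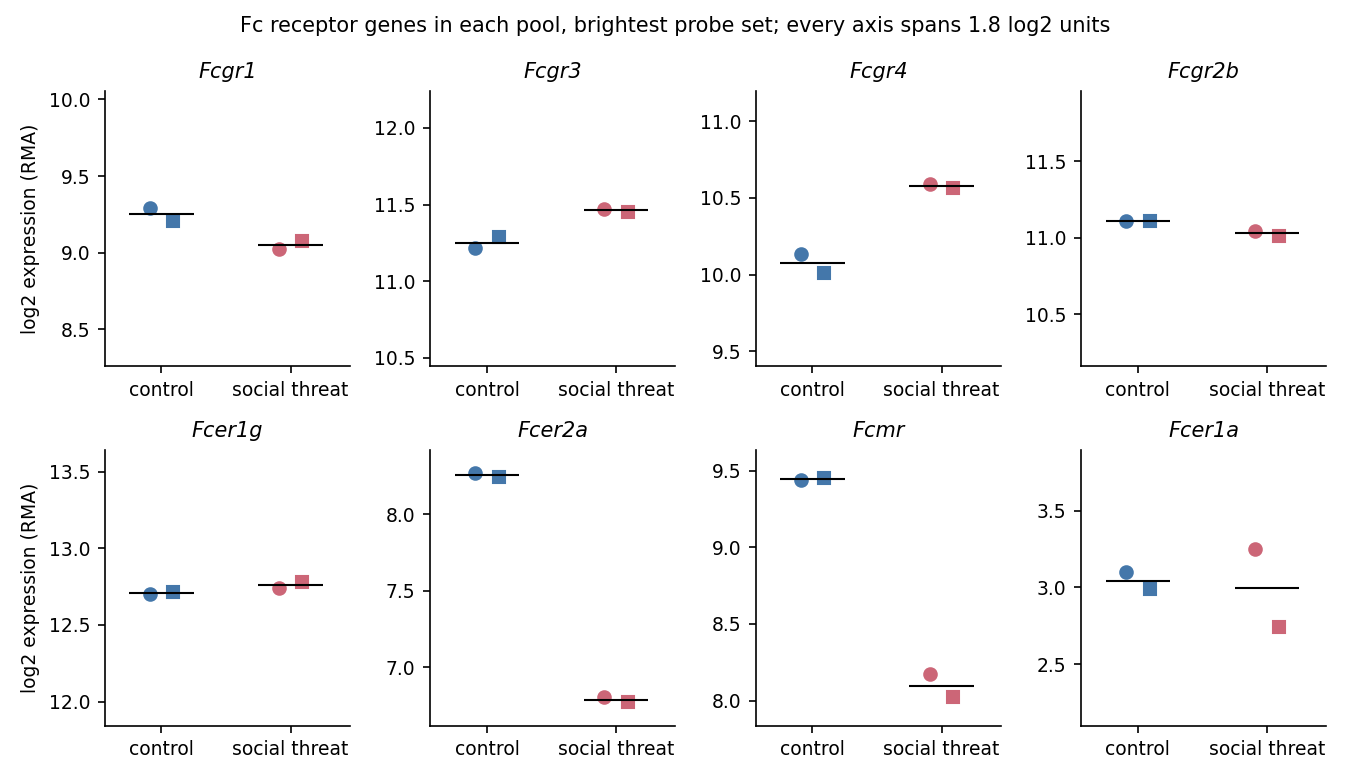
Log2 expression (vertical axis, RMA values) of the brightest probe set of each of the 8 Fc receptor genes in the 2 control pools (blue) and the 2 social threat pools (red). Circles are pool 1, squares are pool 2 and black lines are group means. Fcer2a and Fcmr lie more than 1 unit lower under social threat, Fcgr4 and Fcgr3 lie higher, and Fcer1a spreads as widely within the social threat group as across the groups.

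Fcgr4 encodes an activating receptor for IgG2 isotypes that is found on neutrophils, macrophages and patrolling monocytes. Its log2 level was 10.13 and 10.01 in the control pools and 10.59 and 10.57 in the social threat pools. Both social threat pools were higher than both control pools, and the gap between groups was several times the gap within either. The level rose from 10.07 ± 0.08 to 10.58 ± 0.02 (SD, n = 2 pools), a log2 difference of 0.51 (SE 0.05, 95% interval 0.39 to 0.62, limma adjusted p = 0.000158). The call was made under every one of the 10 other settings fitted across all probe sets, with log2 differences of 0.45 to 0.57.

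Fcgr3 encodes the low-affinity activating IgG receptor CD16. It read 11.22 and 11.29 in the control pools and 11.47 and 11.45 in the social threat pools, again without overlap but with a smaller step. The log2 difference was 0.21 (SE 0.04, 95% interval 0.13 to 0.30, limma adjusted p = 0.0043), and this interval lies wholly below that of Fcgr4. The call rested on the number of arrays and on how their variance was modelled. The limma adjusted p of Fcgr3 was 0.0846 when social threat pool 1 was left out, 0.0627 when pool 2 was and 0.172 when limma was run without the variance trend, while the difference stayed between 0.18 and 0.25.

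Fcgr1 encodes CD64, the high-affinity IgG receptor, which interferon gamma induces. Its brighter probe set read 9.29 and 9.21 in the control pools and 9.02 and 9.07 in the social threat pools, lower under social threat without overlap. The log2 difference was -0.20 (SE 0.06, 95% interval -0.34 to -0.06), with a limma adjusted p of 0.061, just short of the threshold. It passed when control pool 2 was left out (adjusted p = 0.0207) and when dim probe sets were removed from the table (adjusted p = 0.0319). The dimmer probe set of Fcgr1 read 7.15 and 7.31 in the control pools and 7.17 and 7.08 in the social threat pools, which overlap, and its limma adjusted p was 0.586.

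Fcer1g encodes the gamma chain that the activating receptors share. It read 12.70 and 12.71 in the control pools and 12.74 and 12.78 in the social threat pools, a difference of 0.06 (SE 0.03, 95% interval -0.001 to 0.11, limma adjusted p = 0.199). The interval holds a change of at most 0.11 on the log2 scale, below the lower bound of 0.39 for Fcgr4.

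Fcgr2b, the inhibitory receptor gene, had 5 probe sets, of which 3 derive from 1 source sequence and are no independent readings. Its brightest probe set read 11.11 in both control pools and 11.05 and 11.01 in the social threat pools. This small step down, -0.08 (SE 0.04, 95% interval -0.17 to 0.002), did not pass the test (limma adjusted p = 0.204). The 4 bright probe sets were all lower in both social threat pools, by -0.08 to -0.12, and none was called. The one at -0.12 had an adjusted p of 0.126, and it was called after quantile normalization (adjusted p = 0.0484) and without control pool 1 (adjusted p = 0.0353). The remaining probe set lay below the array median, at 2.60 to 3.13, where RMA gives no measure apart from background. Per Affymetrix naming, the brightest and 1 other probe set of Fcgr2b carry suffixes (_s_at, _x_at) that mark probes shared with other transcripts.

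**Figure D2:**
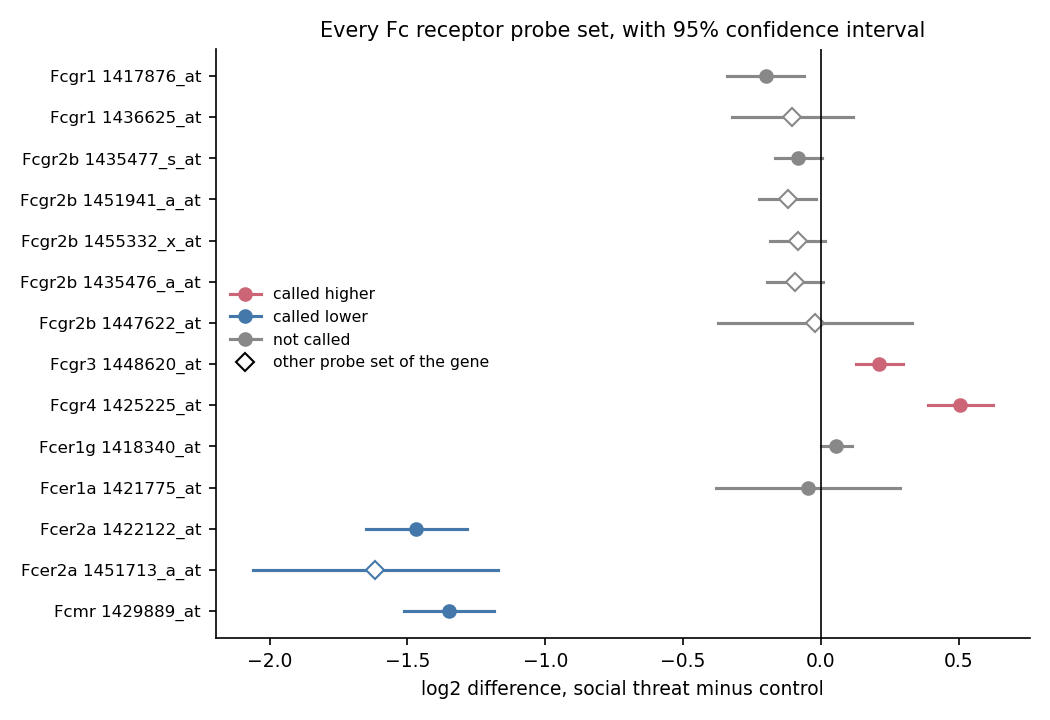
Log2 difference, social threat minus control (horizontal axis), of all 14 Fc receptor probe sets with their 95% confidence intervals from limma. Filled circles are the brightest probe set of a gene, open diamonds its other probe sets; red was called higher, blue called lower and grey not called. The Fcgr3 and Fcgr4 intervals do not overlap, and the bright Fcgr2b probe sets cluster just below 0.

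The balance of activating to inhibitory IgG receptors was described within each array, as the log2 level of an activating gene minus that of Fcgr2b. Set against the mean of the control pools, Fcgr4 minus Fcgr2b stood at 0.06 and -0.06 in the control pools and at 0.58 and 0.59 in the social threat pools. The ratio of Fcgr4 to Fcgr2b was therefore 1.5-fold higher under social threat. It is a ratio of RNA over mixed cells, and Fcgr2b is also found on B cells. The balance within any cell type was not measured. Fcgr3 minus Fcgr2b changed by 0.29, or 1.23-fold, and Fcer1g minus Fcgr2b by 0.14, or 1.10-fold. Fcgr1 minus Fcgr2b moved the other way, by -0.12. The pools of the groups did not overlap for any of these 4 differences. All 4 subtract the same Fcgr2b levels, so they are not separate observations, and 52.7% of all single probe sets separated in this way. The exact two-sided permutation test gave p = 0.333 for each of them, also after Benjamini-Hochberg adjustment over the 4, which is the smallest value that 2 against 2 pools allow, so no such test could reach 0.05.

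**Figure D3:**
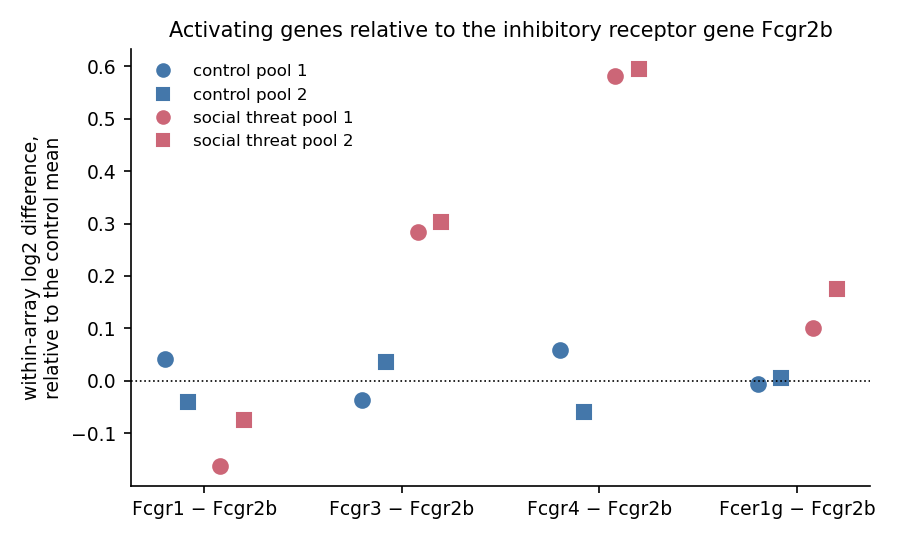
Log2 level of Fcgr1, Fcgr3, Fcgr4 or Fcer1g minus that of Fcgr2b in the same array (vertical axis), relative to the mean of the 2 control pools. Each symbol is 1 pool (blue control, red social threat; circles pool 1, squares pool 2), and the Fcgr4 difference is 0.58 and 0.59 in the social threat pools.

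Fcgr2b, Fcgr4 and Fcgr3 are next to each other on mouse chromosome 1, with 0 other protein-coding genes between them in RefSeq GRCm38.p6, and Fcer1g follows after 7 further genes. Neighbours in this cluster therefore differed in direction, with Fcgr4 and Fcgr3 higher and Fcgr2b lower without a call. Fcgr1 lies on chromosome 3 and Fcer2a on chromosome 8.

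The promoters of the 4 called genes and of the other IgG receptor genes, Fcgr1 and Fcgr2b, are shown so that their sequence can be set beside their direction. The 250 bases before the start of transcription were taken from RefSeq (GRCm38.p6), which had an entry for all 8 genes, and were searched on both strands for 2 motifs. GAGGAA, with its reverse complement, is the core bound by PU.1, a transcription factor of myeloid and B cells. TTCNNNNGAA is the spacing preferred by STAT6 after IL-4, a cytokine known to induce Fcer2a in B cells. Capitals mark matches to either motif.

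Fcgr4, chr1:171018676-171018925, plus strand: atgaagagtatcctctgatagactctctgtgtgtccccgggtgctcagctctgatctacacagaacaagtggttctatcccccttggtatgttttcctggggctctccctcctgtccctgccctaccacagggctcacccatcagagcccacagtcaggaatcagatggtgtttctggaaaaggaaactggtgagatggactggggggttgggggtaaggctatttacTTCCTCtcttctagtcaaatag
Fcgr3 (first of 2 start sites), chr1:171059404-171059653, minus strand: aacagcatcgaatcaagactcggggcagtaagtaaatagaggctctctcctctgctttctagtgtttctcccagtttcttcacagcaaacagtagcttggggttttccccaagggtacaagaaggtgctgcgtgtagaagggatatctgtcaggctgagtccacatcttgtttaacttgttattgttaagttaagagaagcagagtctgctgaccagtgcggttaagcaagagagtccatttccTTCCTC
Fcgr1, chr3:96293970-96294219, minus strand: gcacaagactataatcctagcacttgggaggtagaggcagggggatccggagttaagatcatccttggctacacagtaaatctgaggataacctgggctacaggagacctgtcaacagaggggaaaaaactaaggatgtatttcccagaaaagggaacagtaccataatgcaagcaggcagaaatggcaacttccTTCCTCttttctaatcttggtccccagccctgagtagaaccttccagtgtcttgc
Fcgr2b, chr1:170976072-170976321, minus strand: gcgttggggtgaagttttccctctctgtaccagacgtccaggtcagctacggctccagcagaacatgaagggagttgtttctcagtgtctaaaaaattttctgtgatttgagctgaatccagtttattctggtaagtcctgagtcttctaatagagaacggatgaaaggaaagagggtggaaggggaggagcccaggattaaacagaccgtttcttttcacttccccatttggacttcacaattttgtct
Fcmr, chr1:130865527-130865776, plus strand: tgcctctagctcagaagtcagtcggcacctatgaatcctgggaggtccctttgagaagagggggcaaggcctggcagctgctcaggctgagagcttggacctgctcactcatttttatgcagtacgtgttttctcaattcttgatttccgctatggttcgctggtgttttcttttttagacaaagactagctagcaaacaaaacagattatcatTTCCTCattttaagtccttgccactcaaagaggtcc
Fcer2a (second of 3 start sites), chr8:3690862-3691111, minus strand: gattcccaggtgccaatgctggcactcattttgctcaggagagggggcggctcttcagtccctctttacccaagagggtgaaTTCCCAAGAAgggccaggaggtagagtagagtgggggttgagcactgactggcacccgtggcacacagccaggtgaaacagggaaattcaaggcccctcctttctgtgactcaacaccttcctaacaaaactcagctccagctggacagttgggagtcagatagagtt

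A PU.1 core was present at 6 of the 11 start sites of the 8 genes, in 5 of the genes, and in 23.3% of the 32851 start site windows of all RefSeq genes. The windows of the 2 Fcgr3 start sites overlap, and the same match is counted at both. The core lay 17 to 22 bases before the start of Fcgr4, 1 to 6 bases before the first start of Fcgr3 and 50 to 55 bases before that of Fcgr1. It also lay 31 to 36 bases before the start of Fcmr and further upstream in Fcer1a. Genes with this match thus rose (Fcgr4, Fcgr3), fell (Fcmr) or were not called (Fcgr1, Fcer1a). The STAT6 spacing was found at 1 of the 3 start sites of Fcer2a, 159 to 168 bases before it, and in 5.85% of all windows. Fcgr2b and Fcer1g had neither motif in this window. A match describes letters and is not a measured binding site, and the arrays do not tell which start site was used.

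Fcer2a had the largest difference of the 8 genes. Its brighter probe set read 8.27 and 8.24 in the control pools and 6.80 and 6.77 in the social threat pools. The groups were far apart and the pools within them nearly equal, with a log2 difference of -1.47 (SE 0.08, 95% interval -1.65 to -1.28, limma adjusted p = 3.26e-06). The second probe set read 6.19 and 6.20 in the control pools and 4.92 and 4.23 in the social threat pools. It fell by 1.62 on the log2 scale (SE 0.20, limma adjusted p = 0.00044), but its social threat pools were 0.69 apart and 1 of them lay below the array median of 4.42, so background can limit this fall.

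Fcmr, read by 1 probe set, stood at 9.44 and 9.45 in the control pools and at 8.17 and 8.02 in the social threat pools. It fell by 1.35 (SE 0.07, 95% interval -1.51 to -1.19, limma adjusted p = 2.49e-06), with no overlap of pools. Its interval overlapped that of Fcer2a.

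B cell markers moved with these 2 genes. Of 10 measured markers, 9 fell and 0 rose, where 11.7% of all genes fell, and the exception was Pax5, a B lineage transcription factor, at 4.98 to 5.09 in all 4 pools. The median level of the list was 8.65 and 8.61 in the control pools and 7.61 in both social threat pools, and the log2 of its summed level was 12.18 in both control pools and 11.30 and 11.26 in the social threat pools. No defining marker was at 0, a value RMA does not give. The median difference of the list was -0.90, and a fall of this size was not particular to B cell markers. T cell markers had a median difference of -0.98 (8 of 8 lower) and conventional dendritic cell markers of -0.90 (8 of 9 lower). Taken within each array against the median of the B cell list, Fcer2a was lower by -0.46 and Fcmr by -0.34 under social threat, while Fcgr2b, which B cells also carry, was higher by 0.93. The part of B cells, or of the other cells whose markers fell, in these differences was not tested.

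Markers of cells that carry the activating receptors moved in both directions. Of 8 measured mature neutrophil markers, 6 rose and 2 fell, where 9.4% of all genes rose. Their median level was 12.37 and 12.38 in the control pools and 12.58 and 12.59 in the social threat pools, and the log2 of their summed level went from 15.79 and 15.78 to 16.03 in both. Without the variance trend 3 of them rose and 0 fell, and without social threat pool 2 only 1 fell. Immature neutrophil markers rose for 9 of 9, with a median difference of 2.18. Against the median of the mature neutrophil list in the same array, Fcgr3 changed by 0.00 and Fcgr4 by 0.30. Against the immature neutrophil median Fcgr4 went the other way, by -2.80. That median was read from Fcnb in the control pools and from Elane in the social threat pools. The -2.80 thus depends in part on a change of the middle gene, while the median difference of the list was 2.18.

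Patrolling monocyte markers, whose cells are known for high Fcgr4, fell for 7 of 9 genes and rose for 0, with a median difference of -0.50. Over all genes, 11.7% fell and 9.4% rose. Within an array Fcgr4 was higher by 1.36 against the median level of this list. That level was 9.56 and 9.67 in the control pools, read from Cd36, and 8.73 and 8.79 in the social threat pools, read from Cx3cr1 and Spn. The 1.36 thus depends on a change of the middle gene. Red pulp macrophage markers fell for 8 of 11 and rose for 0, and the log2 of their summed level went from 13.84 and 13.87 to 13.40 and 13.41. Classical monocyte markers rose for 2 of 5 and fell for 1, with 2 lower when control pool 2 was left out, and 1 higher and 0 lower without the variance trend. Fcgr1, which these phagocytes share, was higher by 0.28 within an array against the macrophage median and lower by -0.42 against the classical monocyte median. The part of any of these cells in the Fc receptor differences was not tested.

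**Figure D4:**
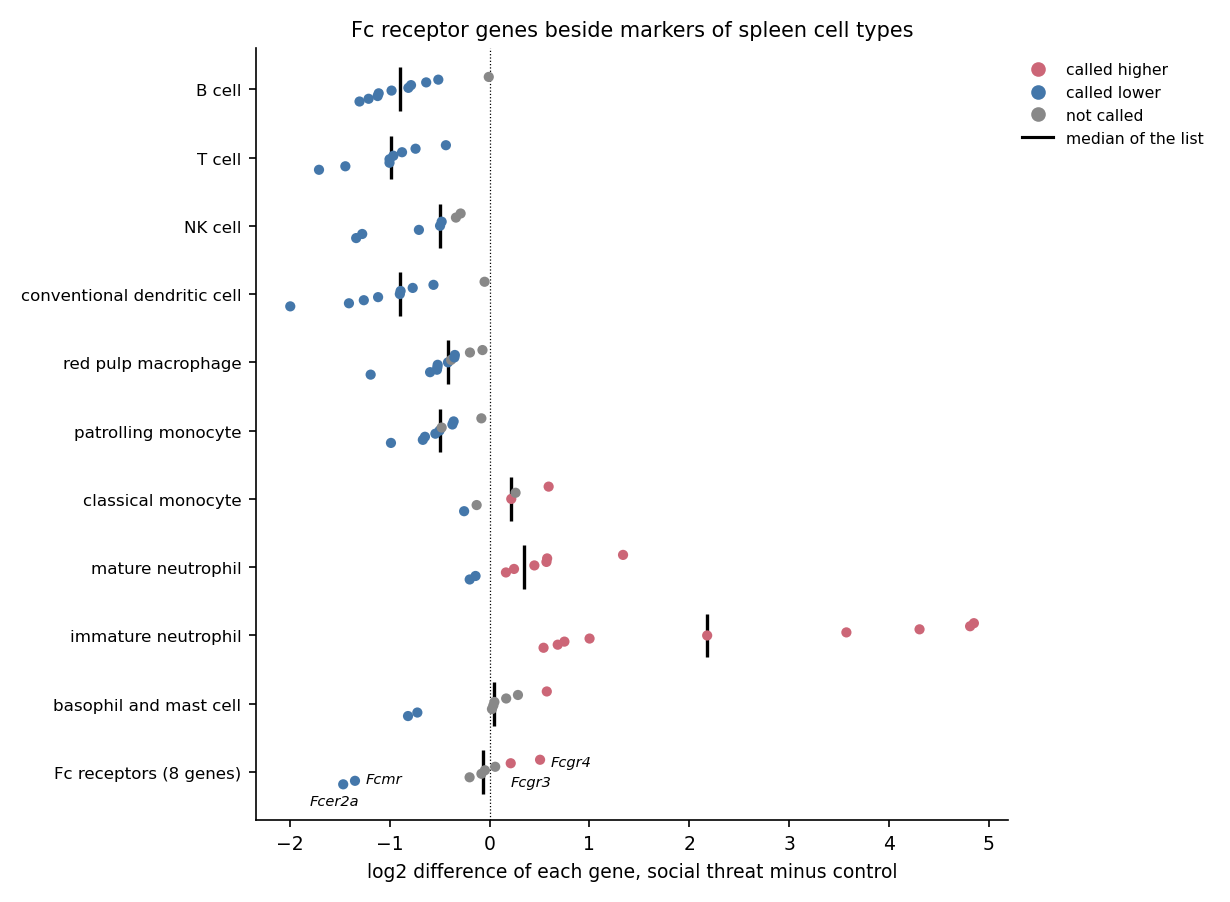
Log2 difference, social threat minus control (horizontal axis), of each measured gene of 10 cell type marker lists and of the 8 Fc receptor genes in the bottom row. Each dot is 1 gene (red called higher, blue called lower, grey not called) and the black bar is the median of the list. Fcer2a and Fcmr lie below the B cell median of -0.90, while Fcgr4 lies above the mature neutrophil median of 0.35 and below the immature neutrophil median of 2.18.

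Fcer1a, the alpha chain of the high-affinity IgE receptor, read 3.10 and 2.99 in the control pools and 3.25 and 2.74 in the social threat pools. All values lay below the array median, the pools overlapped, and the limma adjusted p was 0.896, so no level apart from background was shown. Ms4a2, the beta chain of the same receptor, lay below the array median in all pools and was not called (adjusted p = 0.102). Of 8 measured basophil and mast cell markers, 1 rose and 2 fell, where 9.4% of all genes rose and 11.7% fell. Mcpt8, a basophil protease, rose by 0.57 from a level near the array median, a call not made without control pool 2 (adjusted p = 0.0625), social threat pool 1 (0.172) or social threat pool 2 (0.0799). Il4 fell by 0.82, also near the array median, and lost its call without control pool 1 (adjusted p = 0.113), social threat pool 1 (0.225) or the variance trend (0.0814). Kit, the stem cell factor receptor, fell by 0.72, with 1 of its 2 probe sets called.

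Other cell type lists showed 8 of 8 T cell markers, 5 of 7 NK cell markers, 8 of 9 conventional dendritic cell markers, 2 of 5 eosinophil markers and 2 of 6 plasma cell markers lower, and 5 of 6 erythroid markers higher. Over all genes, 11.7% were lower and 9.4% higher, and no list was tested against these shares. The median level of the T cell list was 7.22 and 7.28 in the control pools and 6.39 and 6.32 in the social threat pools. For the NK cell list it was 7.74 and 7.63 in the control pools and 7.06 and 7.08 in the social threat pools. Without either social threat pool in turn, 3 NK cell, 1 eosinophil and 1 plasma cell marker were lower, and without control pool 1 the plasma cell list had 1 higher and 1 lower. NK cells carry Fcgr3 and dendritic cells carry Fcgr2b, and their part in those differences was not tested.

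Among 8 measured genes of other Fc receptors and Fc receptor-like proteins, 3 fell and 0 rose, with a median of -0.05. Over all genes, 11.7% fell and 9.4% rose. Fcgrt, the neonatal Fc receptor that protects IgG from degradation, read 9.16 and 9.13 in the control pools and 8.23 in both social threat pools. It fell by 0.91 (SE 0.06, limma adjusted p = 1.46e-05), so this IgG receptor went the opposite way to Fcgr4. Fcrla, an intracellular B cell protein, fell by 1.30 (SE 0.10) and Fcrl1, a B cell surface receptor, by 0.82 (SE 0.07). Fcrla also stands in the B cell list. For Fcrl1, 1 of 2 probe sets was called.

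Antibody heavy chains were measured for 3 of 9 listed genes. Ighg1, Ighg2b, Ighg2c and Ighe were not among them, so the IgG2 chains bound by the Fcgr4 receptor and the IgE chain had no reading. Ighm, the chain of IgM bound by Fcmr, rose by 0.60 (SE 0.03) while Fcmr fell. Of the 11 Ighm probe sets, 7 were called. Ighg3, an IgG chain, read 6.61 and 6.59 in the control pools and 7.93 and 7.78 in the social threat pools, a rise of 1.25 (SE 0.09), with 1 of its 4 probe sets called. Igha, the chain of IgA, for which none of the 8 genes is named here as a receptor, fell by 0.39 (SE 0.03).

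Receptors that borrow the gamma chain for other ligands were measured for 6 genes, of which 2 fell and 0 rose (1 rose when control pool 2 was left out), with a median of -0.17. Clec4n, which encodes the fungal receptor Dectin-2, fell by 0.23 (SE 0.03) and Clec4d, a C-type lectin that pairs with Mincle, by 0.15 (SE 0.03). Both falls were lost without the variance trend (adjusted p = 0.13 and 0.32), and that of Clec4d also without social threat pool 1 (0.115). Oscar, below the array median in all pools, and Ncr1, near it, were not called, and no level apart from background was shown for Oscar. Over all genes, 11.7% fell and 9.4% rose. Of 6 adaptors that carry ITAM motifs for other receptors, 4 fell and 0 rose. They were the B cell receptor chains Cd79b (fell by 1.21) and Cd79a (1.11) and the T cell receptor chains Cd247 (0.95) and Cd3e (0.44), the last not called without social threat pool 1 (adjusted p = 0.0731) or pool 2 (0.262). For Cd247, 2 of 4 probe sets were called. All 4 adaptors belong to lymphocytes, whose markers fell in the same pools, and the part of lymphocytes in these falls was not tested.

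Of 5 measured kinases that act on or after the ITAM, 2 fell and 0 rose, with a median of 0.05. Over all genes, 11.7% fell and 9.4% rose. Syk, the kinase recruited by the gamma chain, read 10.98 and 10.92 in the control pools and 10.73 and 10.68 in the social threat pools. It fell by 0.25 (SE 0.04, limma adjusted p = 0.00356), but the call was lost without social threat pool 2 (adjusted p = 0.087) and without the variance trend (0.121). Of the 4 Syk probe sets, 2 were called. Fyn, a Src family kinase also used by T cells, fell by 0.62 (SE 0.07). Fgr, a Src family kinase of myeloid cells, differed by 0.06 and was not called. Src lay below the array median in all pools and was not called.

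Scaffolds and effectors downstream of the kinases went both ways, with 4 of 19 higher, 7 lower and a median of 0.01. The shares over all genes were 9.4% higher and 11.7% lower. Lat, the scaffold of T cells and mast cells, fell by 1.00 (SE 0.10), the phospholipase Plcg1 by 0.70 (SE 0.11) and the PI3-kinase regulatory subunit Pik3r1 by 0.38 (SE 0.07). Shc1, an adaptor to the Ras pathway, rose by 0.41 (SE 0.08). Calls were made for 1 of 3 probe sets of Plcg1, 2 of 4 of Pik3r1 and 1 of 2 of Shc1. Rac2, a GTPase of the phagocyte cytoskeleton and oxidase, was picked with its values in view and rose by 0.31 (SE 0.04). The list had 1 higher and 3 lower without social threat pool 1, the same counts without the variance trend, and 2 of each without social threat pool 2. Pik3r1 was not called without social threat pool 2 (adjusted p = 0.0877) or without the variance trend (0.0528), Shc1 not without social threat pool 1 (0.129), and Rac2 not without the variance trend (0.0718).

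Inhibitors of Fc receptor signalling also split, with 4 of 12 higher, 5 lower and a median of -0.07. The shares over all genes were 9.4% higher and 11.7% lower. The B cell inhibitory receptor genes Cd72 and Cd22 fell by 0.91 (SE 0.10) and 0.81 (SE 0.06), and the ubiquitin ligase gene Cblb by 0.54 (SE 0.09). Dok2, an adaptor that restrains Ras signalling in myeloid and T cells, rose by 0.69 (SE 0.10). Inpp5d, the SHIP-1 gene whose product Fcgr2b recruits, was likewise picked with its values in view. It read 10.55 and 10.39 in the control pools and 10.12 and 10.17 in the social threat pools and fell by 0.33 (SE 0.06, limma adjusted p = 0.00508), a call not made without social threat pool 1 (0.0835), social threat pool 2 (0.0509) or the variance trend (0.0865). Cblb was not called without social threat pool 1 (0.0545). The list had 2 higher and 2 lower without social threat pool 1, 2 higher and 3 lower without social threat pool 2, and 2 higher without the variance trend.

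**Figure D5:**
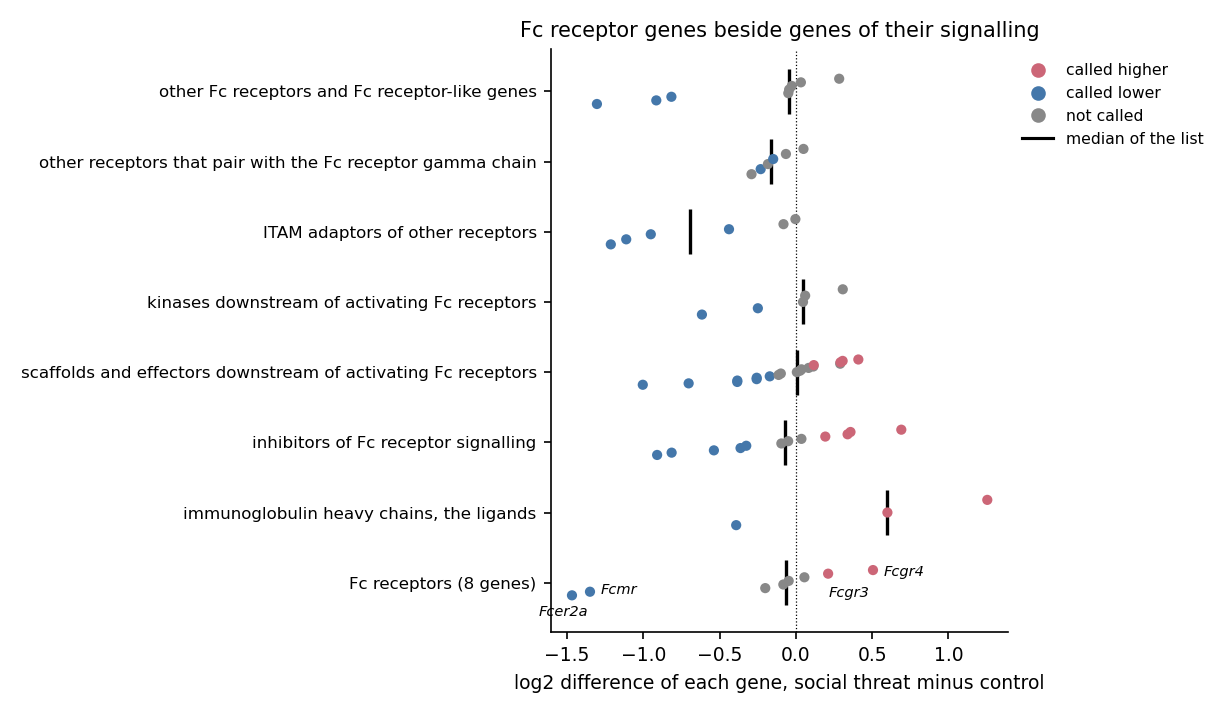
Log2 difference, social threat minus control (horizontal axis), of each measured gene of 7 lists of the Fc receptor pathway and of the 8 Fc receptor genes in the bottom row. Dots are genes (red called higher, blue called lower, grey not called) and black bars are list medians. Kinases, scaffolds and inhibitors have medians within 0.1 of 0 and members on both sides of it.

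For each called receptor gene, the 2 genes with the closest pattern over the 4 arrays were found among 11036 genes above the median level, by the root mean square distance of mean-centred levels. They were Usp15 and Arpc5 for Fcgr3 (distances 0.002 and 0.006), and Degs1 and Agtpbp1 for Fcgr4 (0.004 and 0.009). Ccr7 and Rrad were closest to Fcer2a (0.035 and 0.044), and Srpk3 and Ube2e2 to Fcmr (0.023 and 0.025). Usp15 was not called (limma adjusted p = 0.069). Agtpbp1 was not called without social threat pool 1 (0.0916) or pool 2 (0.0741), nor Arpc5 without social threat pool 1 (0.0548) or the variance trend (0.19). These genes were selected for their likeness to called genes, so their calls are no separate support. With 4 arrays in 2 groups, closeness means mainly a difference of the same size.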

How the data were processed

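Expression was measured in 4 pools of CD11b+ splenocytes, 2 per group, on 1 array each. The authors deposited log2 values that RMA had produced for each probe set; the method, without a version, is named in the submitters' processing notes. RMA subtracts background, makes arrays comparable and shrinks differences at dim probe sets, and it leaves no calls of presence. Array medians lay between 4.41 and 4.43. Scanner files were not used here, and 1 promoter motif is not reported here. The number of arrays limits the precision.

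Symbols came from the platform annotation: 34945 of 45037 had 1 symbol. Groups and pool numbers came from the sample titles. The groups were compared by limma 3.58.1 in R 4.3.3 (lmFit, eBayes with a variance trend, 2 residual and 7.14 prior degrees of freedom, two-sided), with Benjamini-Hochberg adjustment across the whole table. "Rose" and "fell" are used of probe sets at an adjusted p under 0.05. A gene was represented by its brightest probe set. The median level of a list was taken in each array, so its middle gene can change between arrays. The change of that level can therefore differ from the median difference of the list. The labels do not say whether pools of the same number belong together. The p-values measure only the spread between pools, with the variance of each probe set drawn toward that of probe sets of similar level. The prior degrees of freedom exceed the residual ones, so this shared variance weighs more than that of the probe set itself. No batch is named, and one that ran with the groups cannot be told apart from them.

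All 8 Fc receptor genes were named, and up to 4 genes of each of 7 pathway and 14 marker lists, called genes first, by size of difference. The members and lists were chosen with earlier results of these data known. The fit was tested on simulated data, where 115 of 200 planted changes (57.5%) were recovered and 0.862% of the calls were false. Changes can thus be missed, and a gene that was not called is not shown to be unchanged. The simulation held far fewer changes than were called in the data, so its shares need not carry over. Alternatives were the variance trend, a filter on dim probe sets, 3 scalings, a pool-number block, each pool left out and other choices of probe set.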

Additional observations from a re-analysis of the deposited data

How the results depend on the processing

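The 10 settings fitted across all probe sets kept the direction of Fcgr1, Fcgr2b, Fcgr3, Fcgr4, Fcer1g, Fcer2a and Fcmr, and the calls of Fcgr4, Fcer2a and Fcmr. Without the variance trend 4689 probe sets were called in place of 7099, and 1 Fc receptor probe set was called higher in place of 2, since Fcgr3 kept its difference of 0.21 but not its call (adjusted p = 0.172). With each pool left out in turn the calls ranged from 3171 (without social threat pool 2) through 3341 (without social threat pool 1) to 8721, and the Fc receptor probe sets called higher from 1 to 2. Fcgr3 then differed by 0.18 to 0.25, Fcgr1 by -0.24 to -0.16, and Fcer1a, below the array median, by -0.30 to 0.21. With dim probe sets removed Fcgr1, at -0.20, passed (adjusted p = 0.0319). The dim Fcgr2b probe set ranged from -0.28 to 0.24, reversing without control pool 1 (0.09) and social threat pool 2, and Prg2, an eosinophil gene, from -0.29 to 0.083, reversing without social threat pool 1; the cause was not tested. Scalings moved the median of all probe sets by at most 0.007. With the pool number as a replicate block 8168 probe sets were called, 5 of them Fc receptor probe sets, and Fcgr1 had an adjusted p of 0.0509; deviations of same-numbered pools correlated at 0.05, and no label says that pools of the same number share a batch or day, so they were not treated as paired.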
